A study of Mus musculus with 6 samples.

Results

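Solute carrier (SLC) genes encode the membrane proteins that carry sugars, amino acids, metals, anions, nucleosides, vitamins and lipids across the plasma membrane and the membranes of organelles. They were taken from a table of 11164 genes as the symbols beginning with Slc, a family number and the letter a, b or o, without the Slc25 mitochondrial carriers and without Slc4a4. This gave 137 genes, of which 129 had a mean of at least 1 RPKM (reads per kilobase of transcript and megaread) and were tested. The letters of the rule leave out 12 nucleotide sugar transporter genes (Slc35c to Slc35g) and 3 Slco genes. It also takes in 4 genes that encode no transporter: the Nherf scaffolds Slc9a3r1 and Slc9a3r2, Slc4a1ap, named after an interaction with an anion exchanger, and Slc7a6os, named after its position opposite Slc7a6. The remaining 133 are transporter genes or subunits of transporters.

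RNA was sequenced from colonies grown from the pancreas of adult C57Bl/6 mice aged 2 to 4 months. Cells with high CD133 and low CD71 were sorted, a fraction the labels call pancreatic progenitor cells, and exposed overnight to lentivirus. They were then kept under puromycin for 3 weeks in methylcellulose with Matrigel, serum, conditioned medium, RSPO1, nicotinamide, exendin-4 and activin B. Control colonies received 1 shRNA with no mammalian target, and the other groups received pools of 5 shRNA clones against Glis3, a zinc-finger transcription factor, or against CD133, the membrane glycoprotein encoded by Prom1. Loss of a target cannot be told apart from the use of a pool in place of 1 clone, which both knockdowns share. Each group has 2 libraries, titled replicates 1 and 3 and called libraries 1 and 3 here. Whether these are independent cultures is not stated, and a p-value here therefore reflects only library-to-library spread, which may be technical.

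The estimated depth was 25.8 to 29.2 megareads per library. The targets checked the labels: Glis3 stood at 26.05 and 24.22 RPKM in control and at 13.31 and 11.96 RPKM in the Glis3 knockdown, and Prom1 at 191.25 and 203.42 RPKM in control and at 88.03 and 96.00 RPKM in the CD133 knockdown. Of 12 duct markers fixed for the check, 11 had values, with a summed level of 9740 to 10300 RPKM in control, 7670 to 9040 RPKM in the Glis3 knockdown and 7630 to 7990 RPKM in the CD133 knockdown. Without Spp1 the other 10 markers summed to 3251 and 3573 RPKM in control, 3825 and 3504 RPKM in the Glis3 knockdown and 4505 and 3786 RPKM in the CD133 knockdown. With Glis3 shRNA limma called 0 of these 11 (3 at an unadjusted p under 0.05), and with CD133 shRNA 3 rose and 2, Spp1 and Prom1 itself, fell. Among markers of other pancreatic cells, 1 of 15 acinar genes had values (Cela1, at most 1.06 RPKM), with 6 of 13 endocrine, 1 of 8 immune, 0 of 9 mesenchymal and 0 of 5 endothelial genes. The endocrine genes with values summed to 4.57 to 11.2 RPKM in control, 7.25 to 13.9 RPKM in the Glis3 knockdown and 1.21 to 3.58 RPKM in the CD133 knockdown. The immune gene, Cd68, stood at 5.12 to 6.39 RPKM over the 6 libraries. In bulk samples, fewer cells of a type and less RNA per cell cannot be told apart.

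SLC proteins move their substrates down a gradient or couple them to sodium, protons or a counter-ion. Duct epithelium of the pancreas is known for secreting bicarbonate, which uses apical anion exchangers, basolateral bicarbonate import and carbonic anhydrase. Cells that divide depend on imported glutamine, leucine and cystine, and cystine enters through an exchanger made of the light chain Slc7a11 and the heavy chain Slc3a2. Zinc enters the cytosol through the Zip proteins (Slc39) and leaves it through the ZnT proteins (Slc30), while metallothioneins bind it there.

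The promoters of Slc7a11 and Slc30a1 are shown because letters long associated with amino acid shortage and with metal response lie close to the start of these genes, whose levels are described with those of their partners further on. The sequences are from RefSeq on GRCm38.p6, read 5′ to 3′ on the strand of the gene and ending before the first transcript start annotated by RefSeq or GENCODE.
Slc7a11, chr3:50443615-50443763, minus strand: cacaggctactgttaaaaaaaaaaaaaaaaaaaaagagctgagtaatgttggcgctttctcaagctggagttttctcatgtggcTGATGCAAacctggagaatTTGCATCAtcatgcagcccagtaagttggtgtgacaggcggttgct
Slc30a1, chr1:191906631-191906766, plus strand: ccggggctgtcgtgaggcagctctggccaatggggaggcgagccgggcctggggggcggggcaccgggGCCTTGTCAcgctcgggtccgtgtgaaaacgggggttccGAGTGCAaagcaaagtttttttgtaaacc

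Capitals in Slc7a11 mark matches to TGATGNAA, the letters of the C/EBP-ATF response element, at 66 bases before the RefSeq start and, on the other strand, at 47 bases before it. In Slc30a1 they mark a match to TGACNNNGC, the core of the antioxidant response element, at 82 bases and a match to TGCACNC, a core of the metal response element, at 43 bases before the RefSeq start. Each of these lies on the other strand. Both strands of the windows from 250 bases before to 50 after the start were searched, and the motifs did not overlap in these 2 promoters. TGATGNAA was found in 4.0% of all 32851 promoters and in 4.3% of the 138 promoters held for 104 member genes. TGCACNC was found in 12.6% and 15.2%, TGCGCNC (the other metal core searched) in 15.4% and 24.6%, and TGACNNNGC in 12.4% and 19.6%. For Glis3 the letters GACCACCC (the GLI core) and TGGGGGGT (a Glis consensus) were searched, and they stood in 0.8% and 1.5% of all promoters and in 0.0% and 1.4% of those of the members. A match is a description of letters, not evidence of a bound site.

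In control colonies the taurine transporter gene Slc6a6 (139 ± 10.7 RPKM, SD, n = 2) and the zinc importer gene Slc39a4 (132 ± 8.82 RPKM) had the highest levels of all members. The glutamine and neutral amino acid transporter gene Slc38a2 followed with 98.2 ± 5.24 RPKM. A further group lay between 50 and 70 RPKM: the zinc importers Slc39a1 (68.0 ± 8.20 RPKM) and Slc39a7, the scaffold Slc9a3r1 (64.1 ± 2.44 RPKM), the sodium-potassium-chloride cotransporter Slc12a2 (55.7 ± 0.884 RPKM), the heavy chain Slc3a2 (53.6 ± 1.07 RPKM) and the heme transporter Slc48a1 (51.2 ± 0.502 RPKM). Of the 137 genes, 9 exceeded 50 RPKM, 46 lay from 10 to 50 RPKM, 71 from 1 to 10 RPKM and 11 below 1 RPKM. RPKM is scaled by length, so these levels can be compared between genes. The members together held 0.7% to 0.75% of the summed RPKM of each library.

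**Figure D1:**
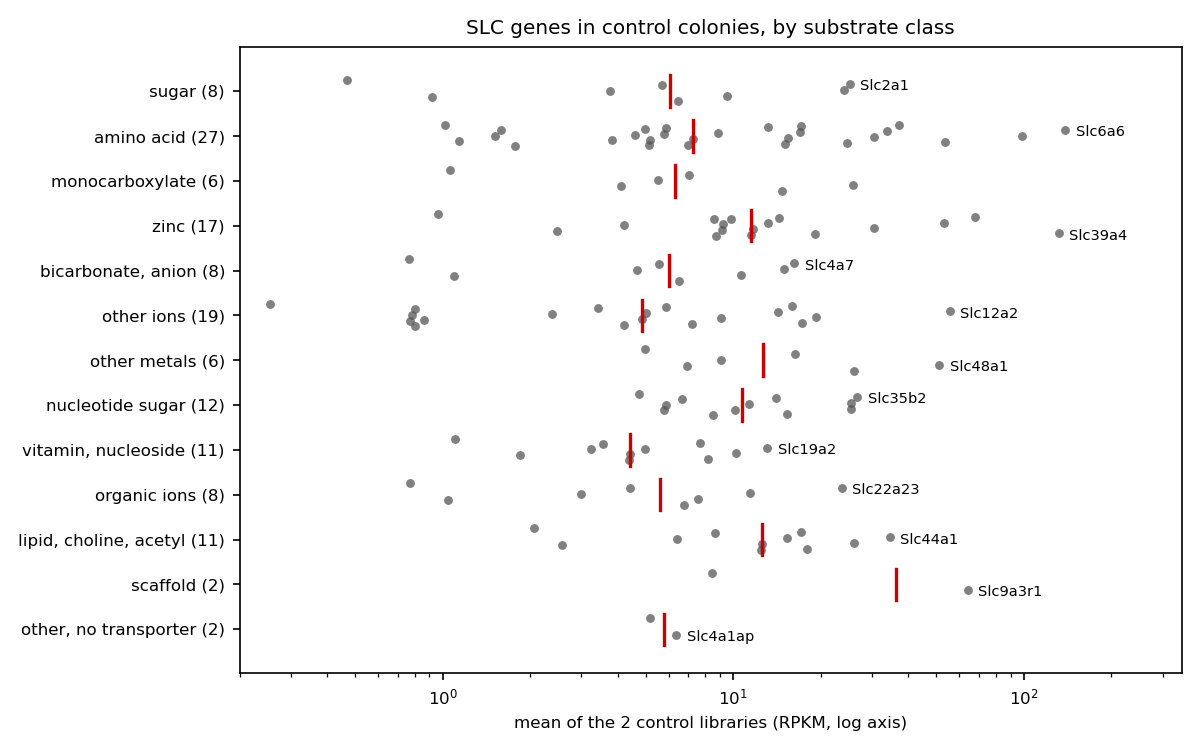
Level of each SLC gene in control colonies (mean of 2 libraries, RPKM, log axis) by substrate class, with the number of genes in parentheses, a red line at the class median and a name at the highest gene of each class but the monocarboxylate class. Zinc transporters had a median of 11.5 RPKM against 7.29 RPKM for amino acid transporters, and the class maxima ran from 6.36 to 139 RPKM.

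By substrate, amino acid transporter genes (27 members) had the largest summed level, with 579 and 542 RPKM in control, 501 and 501 RPKM in the Glis3 knockdown and 527 and 518 RPKM in the CD133 knockdown. The 17 zinc transporter genes summed to 393 and 421 RPKM in control, 417 and 384 RPKM in the Glis3 knockdown and 445 and 447 RPKM in the CD133 knockdown. The 8 genes of the bicarbonate and anion families summed to 62.7 and 57.8 RPKM in control, 61.2 and 61.7 RPKM in the Glis3 knockdown and 80.8 and 73.1 RPKM in the CD133 knockdown. The 6 monocarboxylate genes summed to 56.6 and 59.9 RPKM in control, 43.3 and 39.2 RPKM in the Glis3 knockdown and 41.9 and 48.5 RPKM in the CD133 knockdown. Sums of the monocarboxylate and amino acid classes were therefore lower in every knockdown library than in either control. Those of the anion and zinc classes were above both controls only in the CD133 libraries. Neither pattern was thus particular to 1 class. These sums follow their most abundant members and were not tested.

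The series concerns an axis from Glis3 through CD133 to Wnt signalling in self-renewal, and control colonies were the reference for each knockdown. In the Glis3 knockdown 7 members rose, 9 fell and 113 did not pass, so 12.4% were past the threshold (adjusted p under 0.05, limma) against 12.9% of all genes tested. The rises made up 5.43% of members against 8.39% of all genes, and the falls 6.98% against 4.53%. The median log2 fold change of the members was -0.01, and that of all genes 0.04. In the CD133 knockdown 14 members rose, 7 fell and 108 did not pass, or 16.3% against 11.8% of all genes (10.9% against 8.16% for rises and 5.43% against 3.64% for falls), with a median of 0.06 against 0.04. The share of members past the threshold was thus near that of all genes in the Glis3 knockdown, and the excess in the CD133 knockdown was not tested. Changes were mostly small: 102 of the 129 members in the Glis3 knockdown and 92 in the CD133 knockdown had a log2 fold change between -0.25 and 0.25. The share of all genes in that range was not counted, so whether this is particular to the members cannot be said.

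The balance of rises and falls rested on the scaling. With each library centred on its median, which moved every value by -0.06 in the Glis3 and -0.05 in the CD133 comparison, the split was 2 rises and 17 falls in the Glis3 knockdown and 7 rises and 14 falls in the CD133 knockdown. With quantile normalization it was 3 and 12, and 7 and 10. Every call of the 3 comparisons rested on having both control libraries, since leaving out either leaves 1 library in the control group. In the Glis3 comparison the share of all genes called was also far smaller in those fits. Neither this loss nor the counts without other libraries, given next, are read as traits of the members. Without CD133 shRNA library 1, 0 members were called in the CD133 comparison (33 at an unadjusted p under 0.05), and without CD133 shRNA library 3, 9 were. Without Glis3 shRNA library 3, 8 members were called in the Glis3 comparison. Among the 45 calls of the 3 comparisons, 0 changed sign or moved by over 1.5 times when any single library was left out. This is no test of stability. Leaving out a library of the group not compared cannot change the log2 fold change. Leaving out another moves it only with the gap between 2 libraries of a group, which is small in genes that are called. The range of a log2 fold change over the 6 fits that leave out a library is given below as its leave-out range.

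**Figure D2:**
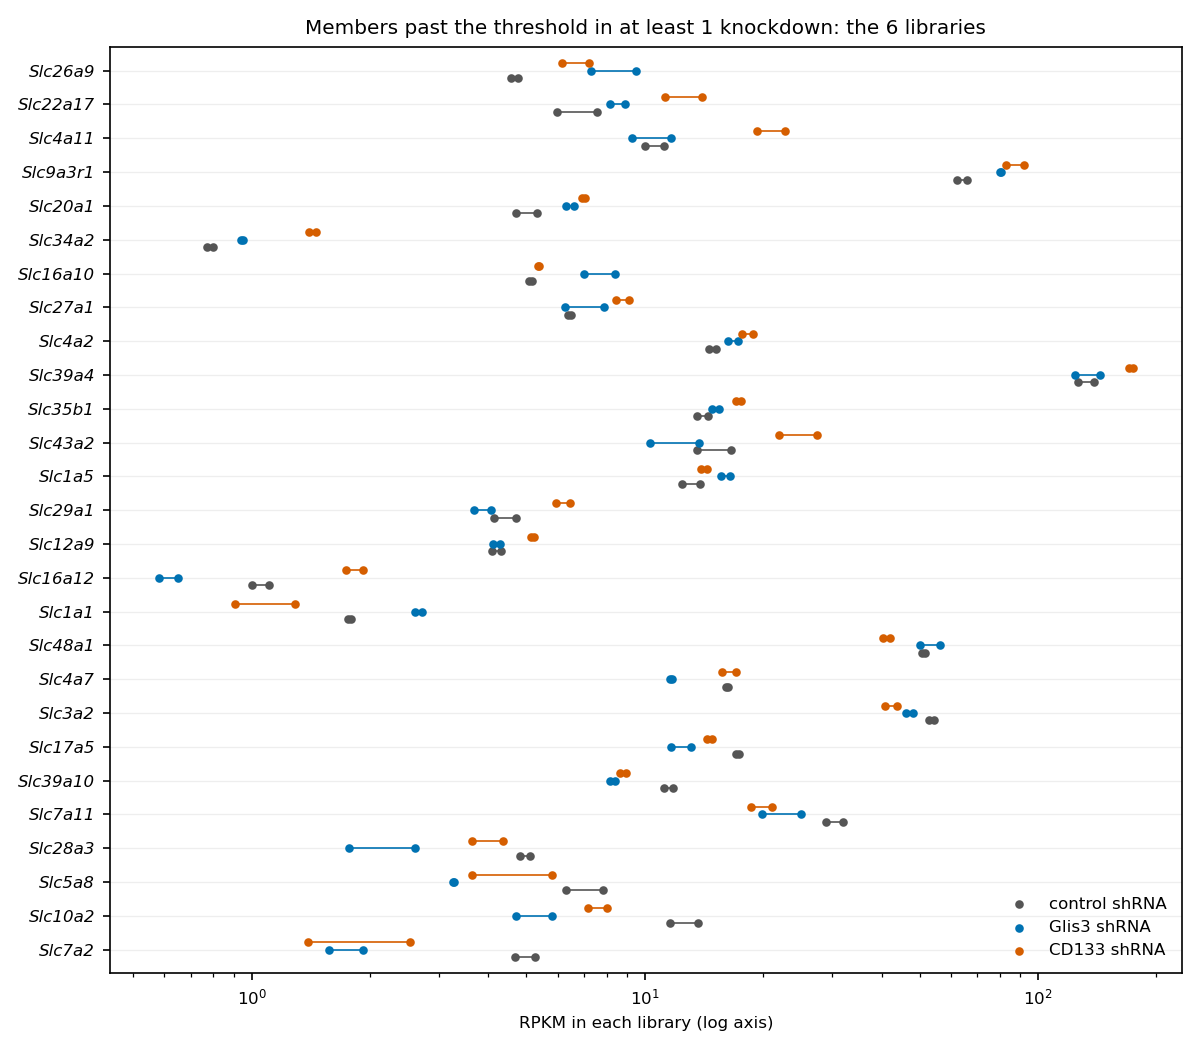
RPKM (log axis) of 27 of the 29 members past the threshold in at least 1 knockdown against control, in each of the 6 libraries; a line joins the 2 libraries of a group. Slc7a2, Slc10a2 and Slc39a10 lay lower in all 4 knockdown libraries than in both controls, and Slc16a12 lay lower in the Glis3 and higher in the CD133 libraries.

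The comparisons with control share their 2 control libraries, so their values are given side by side. Of the 29 members called in either knockdown, 8 were called in both: 4 fell in both, 3 rose in both and 1 fell in the Glis3 and rose in the CD133 knockdown. Shared controls tie the 2 values of a gene together, and the share of all genes called in both was not counted. The overlap is therefore not read as a trait of the members. Of the 4 that fell, 3 are described here, importers of different substrates. Slc7a2 (ENSMUSG00000031596.15, chromosome 8: 40862396 to 40922308, plus strand, GRCm38), a transporter of arginine and other cationic amino acids, measured 5.25 and 4.67 RPKM in control, 1.92 and 1.57 RPKM in the Glis3 knockdown and 1.39 and 2.53 RPKM in the CD133 knockdown. All 4 knockdown libraries lay below both controls. The log2 fold change was -1.12 (SE 0.179, adjusted p = 0.0142, leave-out range -1.21 to -1.03) in the Glis3 knockdown and -1.04 (SE 0.179, adjusted p = 0.0213, leave-out range -1.32 to -0.75) in the CD133 knockdown. The direct difference between the knockdowns was -0.08 (95% confidence interval -0.51 to 0.34). Exons of Slc7a2 overlap those of Gm26584 on the opposite strand, and the strand setting of the counting is not known here. Such an overlap was found for 30 of the 137 members, among them Slc1a1, Slc20a1, Slc29a1, Slc30a1 and Slc43a2, described below.

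Slc10a2 (ENSMUSG00000023073.2, chromosome 8: 5083219 to 5105351, minus strand) encodes the apical sodium-coupled bile acid transporter, known from ileum and bile duct. It measured 11.62 and 13.66 RPKM in control, 5.81 and 4.69 RPKM in the Glis3 knockdown and 7.17 and 8.03 RPKM in the CD133 knockdown. The 3 groups did not overlap, with the Glis3 knockdown lowest. Its log2 fold change was -1.13 (SE 0.113, adjusted p = 0.0057, leave-out range -1.26 to -1.0) with Glis3 shRNA and -0.66 (SE 0.113, adjusted p = 0.0209, leave-out range -0.77 to -0.56) with CD133 shRNA. The difference between the knockdowns, -0.46, did not pass (adjusted p = 0.0781).

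The zinc importer gene Slc39a10 (ENSMUSG00000025986.6, chromosome 1: 46807544 to 46892852, minus strand) measured 11.81 and 11.22 RPKM in control, 8.39 and 8.15 RPKM in the Glis3 knockdown and 8.94 and 8.63 RPKM in the CD133 knockdown. Both knockdown groups lay below control, with log2 fold changes of -0.43 (SE 0.057, adjusted p = 0.00925) and -0.35 (SE 0.057, adjusted p = 0.0193) and leave-out ranges of -0.47 to -0.40 and -0.39 to -0.32.

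Of the 3 members that rose in both, 2 are described here: Slc9a3r1, the scaffold that holds transporters at the apical membrane, and Slc20a1, a sodium-phosphate importer. Slc9a3r1 rose from 62.38 and 65.83 RPKM in control to 80.41 and 80.25 RPKM with Glis3 shRNA (log2 fold change 0.32, SE 0.066, adjusted p = 0.02825) and to 92.35 and 83.13 RPKM with CD133 shRNA (0.45, SE 0.066, adjusted p = 0.0173). Slc20a1 rose from 5.33 and 4.69 RPKM to 6.62 and 6.31 RPKM (0.31, adjusted p = 0.0364) and to 6.94 and 7.04 RPKM (0.41, adjusted p = 0.0213). In both genes, each knockdown library lay above both controls. Leave-out ranges in the Glis3 and CD133 comparisons were 0.28 to 0.36 and 0.37 to 0.52 for Slc9a3r1, and 0.24 to 0.39 and 0.34 to 0.49 for Slc20a1. With median centring, the Glis3 calls of these 2 genes were lost, and the Glis3 call of Slc20a1 was lost when any 1 library was left out.

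**Figure D3:**
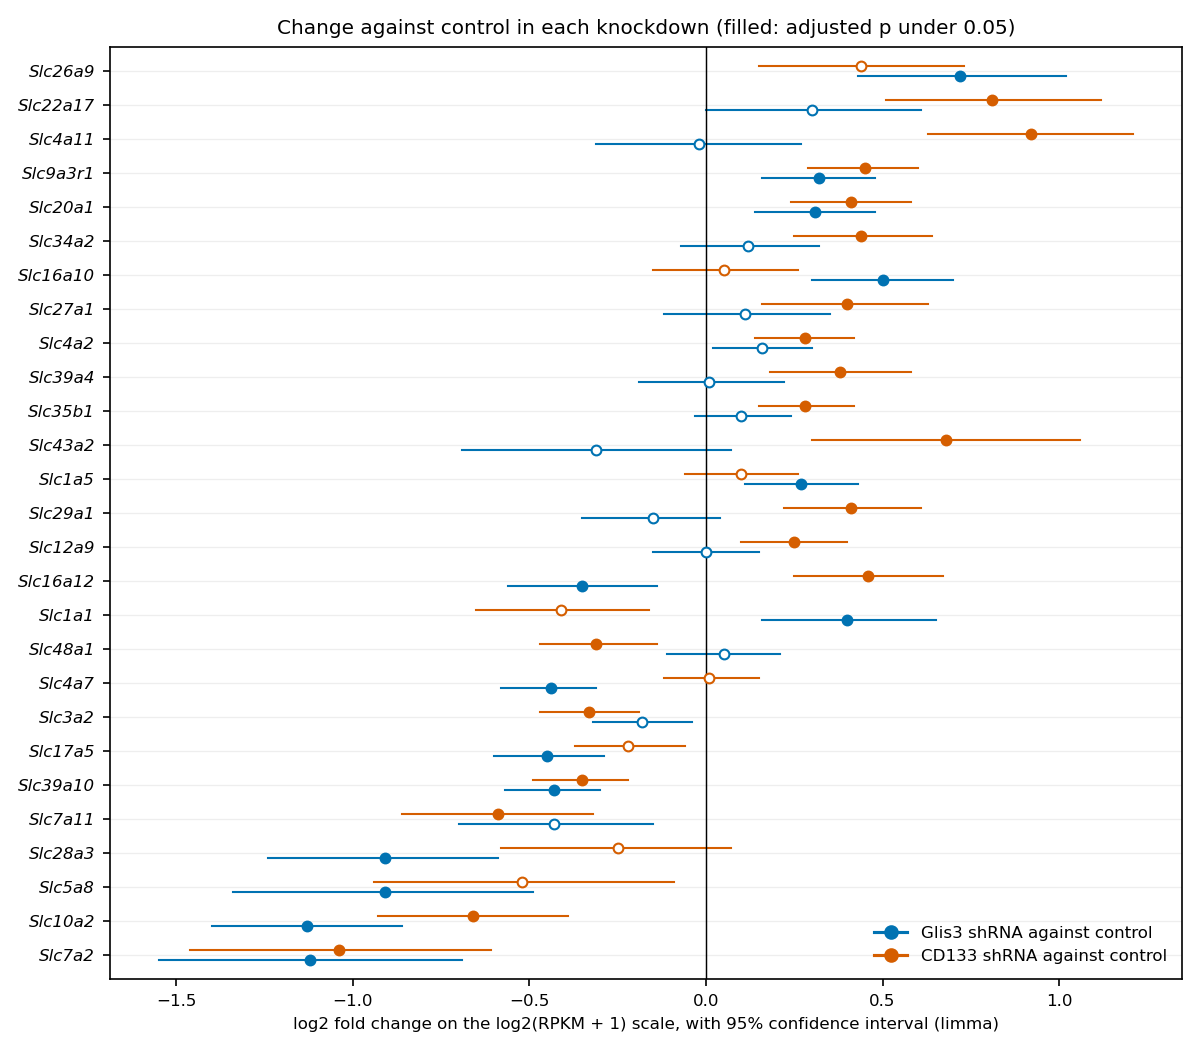
Log2 fold change against control (log2(RPKM + 1) scale) of the same 27 members with Glis3 shRNA (blue) and CD133 shRNA (orange), with 95% confidence intervals; filled points have an adjusted p under 0.05. Both comparisons use the same controls; Slc16a12 was filled on opposite sides of 0.

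The knockdowns were also set against each other, a comparison that tests their difference directly and uses the control libraries only for the spread. Here 3 members were higher and 5 lower in the Glis3 than in the CD133 knockdown, or 6.2% of members against 4.06% of all genes (2.33% against 1.61% higher and 3.88% against 2.46% lower). Slc16a12 (chromosome 19: 34668403 to 34747289, minus strand), a monocarboxylate family member that carries creatine, measured 1.00 and 1.11 RPKM in control, 0.58 and 0.65 RPKM in the Glis3 knockdown and 1.74 and 1.92 RPKM in the CD133 knockdown. The 3 groups were apart, with the Glis3 libraries below and the CD133 libraries above control. Its log2 fold change was -0.35 (SE 0.089, adjusted p = 0.0493) with Glis3 shRNA and 0.46 (SE 0.089, adjusted p = 0.0262) with CD133 shRNA, and -0.81 (adjusted p = 0.0129, leave-out range -0.85 to -0.76) between them. At about 1 RPKM the pseudocount of 1 understates such a change, and the Glis3 call was lost when any 1 library was left out (leave-out range -0.39 to -0.31). Slc16a12 passed the filter only through its CD133 libraries (group means 1.06 in control, 0.615 with Glis3 and 1.83 RPKM with CD133 shRNA).

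Slc1a1, a high-affinity importer of glutamate and aspartate, measured 1.76 and 1.79 RPKM in control, 2.72 and 2.61 RPKM in the Glis3 knockdown and 0.91 and 1.29 RPKM in the CD133 knockdown. It rose with Glis3 shRNA (log2 fold change 0.40, SE 0.103, adjusted p = 0.04996, at the edge of the threshold), stood at -0.41 with CD133 shRNA (adjusted p = 0.05, just outside it), and differed between the knockdowns by 0.81 (adjusted p = 0.0173, leave-out range 0.68 to 0.94). Among the tested members Slc4a11 and Slc43a2 showed the largest differences between the knockdowns, -0.94 (adjusted p = 0.0173, leave-out range -1.10 to -0.79) and -0.99 (adjusted p = 0.0294, leave-out range -1.18 to -0.79). Slc29a1, the equilibrative nucleoside transporter, differed by -0.56 (adjusted p = 0.0227, leave-out range -0.62 to -0.51), with 4.06 and 3.67 RPKM in the Glis3 and 5.95 and 6.44 RPKM in the CD133 knockdown, beside 4.13 and 4.69 RPKM in control. Slc48a1, which moves heme out of the lysosome, was higher with Glis3 shRNA by 0.36 (adjusted p = 0.0429, leave-out range 0.27 to 0.44). Fitted on the 4 knockdown libraries alone, the comparison called 0 members by limma, with 35 at an unadjusted p under 0.05. Without Glis3 shRNA library 1 it called 16, without Glis3 shRNA library 3 or CD133 shRNA library 3 it called 3, and without CD133 shRNA library 1 it called 0 (30 at an unadjusted p under 0.05).

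Over all genes tested, rises made up 8.39% and falls 4.53% with Glis3 shRNA, and 8.16% and 3.64% with CD133 shRNA. The classes and lists that follow were not tested against these shares. None of the 6 sugar transporter genes tested passed in any comparison, which is not read as a trait of so small a class. The class has 8 members, and Slc5a9 and Slc5a1 were below the filter (values of Slc5a9 are given further on). Of the 6, limma called 0 in either knockdown, with 0 at an unadjusted p under 0.05 for Glis3 and 1 for CD133 shRNA (median log2 fold change -0.09 with Glis3 and 0.00 with CD133 shRNA). Slc2a1, the basal glucose importer, measured 26.03 and 24.29 RPKM in control, 23.63 and 22.48 RPKM in the Glis3 knockdown and 23.20 and 25.23 RPKM in the CD133 knockdown. Its log2 fold change was -0.12 (interval -0.28 to 0.04) and -0.05 (interval -0.21 to 0.10), so changes beyond these bounds lay outside the intervals. Slc50a1, a sugar transporter of the SWEET family, stood at 0.03 (interval -0.13 to 0.19) and 0.06 (interval -0.10 to 0.22). The largest change against control among these 6 was that of Slc5a3, the myo-inositol cotransporter, at -0.49 with CD133 shRNA (adjusted p = 0.1083); its exons overlap those of Mrps6 on the same strand. Slc45a3 stood at -0.14 between the knockdowns (adjusted p = 0.2472).

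Among 20 glycolysis genes listed beside the sugar transporters, 19 had values. In the Glis3 knockdown 2 rose, 0 fell and 17 did not pass (median -0.03, all genes 0.04), and in the CD133 knockdown 2 rose and 17 did not pass (median 0.11). The hexokinase gene Hk1 rose from 9.36 and 9.42 RPKM to 12.09 and 13.08 RPKM with Glis3 shRNA (0.39, adjusted p = 0.0133) and to 11.67 and 11.13 RPKM with CD133 shRNA (0.25, adjusted p = 0.0421). The other rises were those of phosphofructokinase genes, Pfkp by 0.38 in the Glis3 knockdown (adjusted p = 0.04125) and Pfkm by 0.27 in the CD133 knockdown (adjusted p = 0.0324).

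Of the 27 amino acid transporter genes, 3 rose and 1 fell in the Glis3 knockdown and 1 rose and 3 fell in the CD133 knockdown, with 23 not past the threshold in each (medians -0.07 and 0.05). The most abundant members were not called: Slc6a6 stood at -0.23 (adjusted p = 0.108) and -0.01, and Slc38a2 at -0.19 (adjusted p = 0.0957) and -0.18 (adjusted p = 0.111). Besides Slc1a1, the rises with Glis3 shRNA were those of Slc16a10 and Slc1a5. Slc16a10, which carries tryptophan, tyrosine and phenylalanine, measured 5.09 and 5.17 RPKM in control, 7.0 and 8.40 RPKM in the Glis3 knockdown and 5.39 and 5.34 RPKM in the CD133 knockdown. Its log2 fold change was 0.50 (SE 0.084, adjusted p = 0.0164, leave-out range 0.38 to 0.62) with Glis3 shRNA, and the knockdowns differed by 0.45 (adjusted p = 0.0427). Slc1a5, the sodium-coupled glutamine importer, rose from 13.84 and 12.46 RPKM to 16.46 and 15.58 RPKM with Glis3 shRNA (0.27, SE 0.067, adjusted p = 0.0464, leave-out range 0.20 to 0.34), a call lost when any 1 library was left out. The Glis3 calls of Slc1a1 and Slc1a5 were lost with median centring.

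Slc43a2, a transporter of leucine and other large neutral amino acids, measured 13.58 and 16.52 RPKM in control, 27.35 and 21.98 RPKM in the CD133 knockdown and 13.72 and 10.29 RPKM in the Glis3 knockdown. It rose with CD133 shRNA (log2 fold change 0.68, SE 0.159, adjusted p = 0.0419, leave-out range 0.52 to 0.83), a call lost with median centring, while its Glis3 libraries overlapped control. Both subunits of the cystine exchanger fell with CD133 shRNA. Slc7a11 (ENSMUSG00000027737.10, chromosome 3: 49892526 to 50443614, minus strand), whose promoter is printed above, fell from 31.84 and 28.94 RPKM to 21.11 and 18.63 RPKM with CD133 shRNA (-0.59, SE 0.115, adjusted p = 0.0268, leave-out range -0.68 to -0.50). With Glis3 shRNA it measured 19.92 and 25.01 RPKM, also below both controls, and its value of -0.43 did not pass (adjusted p = 0.0568). Its heavy chain Slc3a2 (chromosome 19: 8706882 to 8723369, minus strand), shared with the leucine transporter light chains, fell from 54.32 and 52.81 RPKM to 40.73 and 43.91 RPKM with CD133 shRNA (-0.33, SE 0.058, adjusted p = 0.0216, leave-out range -0.39 to -0.28). It stood at 48.17 and 46.25 RPKM with Glis3 shRNA (-0.18, adjusted p = 0.0916).

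A list of 20 genes linked to the response to amino acid shortage, several of them targets of the transcription factor Atf4, was set beside these. Of its 19 genes with values, 0 rose, 4 fell and 15 did not pass in the CD133 knockdown (median -0.28, all genes 0.04), and 0 rose, 2 fell and 17 did not pass in the Glis3 knockdown (median -0.16). Falls made up 3.64% of all genes with CD133 and 4.53% with Glis3 shRNA. The asparagine synthetase gene Asns fell from 43.82 and 43.07 RPKM to 30.98 and 35.87 RPKM with CD133 shRNA (-0.37, adjusted p = 0.034) and to 35.59 and 32.57 RPKM with Glis3 shRNA (-0.34, adjusted p = 0.0406). The mitochondrial folate enzyme gene Mthfd2 fell by 0.44 with CD133 shRNA (adjusted p = 0.0315), and the alanine transaminase gene Gpt2 fell by 0.35 with CD133 shRNA (adjusted p = 0.0373) and by 0.33 with Glis3 shRNA (adjusted p = 0.0446). The fourth fall with CD133 shRNA, named after its values were seen, was that of the serine synthesis gene Psat1 (-0.33, adjusted p = 0.0461). Atf4 itself, shown although the naming rule does not cover it, measured 129.64 and 125.38 RPKM in control and 96.81 and 107.40 RPKM with CD133 shRNA (-0.32, adjusted p = 0.0685). The list did not move as 1. Some of its genes lay above 0 with CD133 shRNA and did not pass, among them Nupr1 (0.38, adjusted p = 0.0672) and Ddit4 (0.23, adjusted p = 0.0617). These 2, named after their values were seen, were the list's calls between the knockdowns (-0.64, adjusted p = 0.0362, and -0.39, adjusted p = 0.0299). Whether the genes of the list and the cystine exchanger share a control was not tested.

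A list of 10 genes of glutathione synthesis and the oxidant response was set beside the cystine exchanger. Of its 9 genes with values, 4 rose, 1 fell and 4 did not pass in the Glis3 knockdown (median 0.30), and 0 rose, 1 fell and 8 did not pass in the CD133 knockdown (median 0.11). Over all genes, 8.39% rose and 4.53% fell with Glis3 shRNA, and 8.16% and 3.64% with CD133 shRNA. The list was not tested against these shares. With Glis3 shRNA the quinone reductase gene Nqo1 rose from 7.36 and 8.47 RPKM to 14.86 and 16.17 RPKM (0.89, adjusted p = 0.0131) and the sulfiredoxin gene Srxn1 from 26.85 and 29.65 RPKM to 40.99 and 43.58 RPKM (0.57, adjusted p = 0.022). The heme oxygenase gene Hmox1 fell by 0.27 with Glis3 shRNA (adjusted p = 0.0487) and by 0.52 with CD133 shRNA (adjusted p = 0.0148). The heme transporter gene Slc48a1 (chromosome 15: 97778520 to 97792692, plus strand) fell with CD133 shRNA as well, from 50.81 and 51.52 RPKM to 40.32 and 42.05 RPKM (-0.31, SE 0.068, adjusted p = 0.0352, leave-out range -0.34 to -0.28). It stood at 56.26 and 49.96 RPKM with Glis3 shRNA, around control. Exons of Slc48a1 overlap those of Hdac7 on the opposite strand.

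Of the 6 monocarboxylate genes, 3 fell and 3 did not pass in the Glis3 knockdown (median -0.32), and 1 rose, 1 fell and 4 did not pass in the CD133 knockdown (median -0.12). The falls with Glis3 shRNA included those of Slc16a12, which carries creatine rather than lactate, and Slc5a8. Slc5a8 (chromosome 10: 88885992 to 88929515, plus strand), the sodium-coupled importer of lactate and short-chain fatty acids, measured 6.30 and 7.83 RPKM in control, 3.25 and 3.27 RPKM in the Glis3 knockdown and 3.63 and 5.81 RPKM in the CD133 knockdown. Its log2 fold change was -0.91 (SE 0.179, adjusted p = 0.0247, leave-out range -1.05 to -0.78) with Glis3 shRNA and -0.52 (adjusted p = 0.107) with CD133 shRNA. Slc16a1, the widespread proton-coupled lactate transporter, measured 13.62 and 15.87 RPKM in control, 11.84 and 11.96 RPKM with Glis3 shRNA (-0.28, adjusted p = 0.0549) and 13.21 and 12.91 RPKM with CD133 shRNA (-0.16, adjusted p = 0.2053). The chaperones of the family, Bsg and Emb, did not pass in either knockdown by limma, with 1 of the 2 at an unadjusted p under 0.05 in each. Bsg measured 309.80 and 341.51 RPKM in control and 387.27 and 376.14 RPKM with Glis3 shRNA (adjusted p = 0.0752).

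Among the 17 zinc transporter genes, 0 rose, 1 fell and 16 did not pass in the Glis3 knockdown, and 1 rose, 1 fell and 15 did not pass in the CD133 knockdown (median -0.02 in each). The fall was that of Slc39a10 in both. The 6 exporter genes of the Slc30 family had log2 fold changes from -0.29 to 0.03 with Glis3 shRNA and from -0.30 to 0.03 with CD133 shRNA, and limma called 0 in each (1 at an unadjusted p under 0.05 in each). The 11 importer genes of the Slc39 family ranged from -0.43 to 0.23 and from -0.35 to 0.38. Slc39a4 (ENSMUSG00000063354.7, chromosome 15: 76612383 to 76617384, minus strand), the apical zinc importer of intestine, measured 126.24 and 138.72 RPKM in control, 143.55 and 124.24 RPKM in the Glis3 knockdown and 170.08 and 174.66 RPKM in the CD133 knockdown. It rose with CD133 shRNA (0.38, SE 0.085, adjusted p = 0.0367, leave-out range 0.31 to 0.45), a call lost with median centring. With Glis3 shRNA it stood at 0.01 (interval -0.19 to 0.22), and the knockdowns differed by -0.37 (adjusted p = 0.0684). Slc39a1 stood at -0.06 and -0.07, with intervals from -0.28 to 0.15 and from -0.28 to 0.14.

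Of the metallothionein genes Mt1 and Mt2 and the zinc sensor gene Mtf1, 2 rose with Glis3 shRNA and 1 rose with CD133 shRNA. Mt2 measured 9.60 and 15.03 RPKM in control, 39.44 and 45.52 RPKM in the Glis3 knockdown and 34.39 and 21.59 RPKM in the CD133 knockdown (log2 fold change 1.73, adjusted p = 0.0116, and 1.12, adjusted p = 0.0373). Mt1 rose from 23.82 and 27.38 RPKM to 41.88 and 45.25 RPKM with Glis3 shRNA (0.75, adjusted p = 0.0121) and stood at 36.88 and 29.96 RPKM with CD133 shRNA (0.37, adjusted p = 0.0755). Mtf1, which encodes the zinc-sensing factor that acts on metal response elements, stood at 0.04 and 0.12. Slc30a1, the plasma membrane zinc exporter whose promoter is printed above, is known to be switched on by zinc along with the metallothioneins; it was chosen for display after its values were seen. It measured 11.94 and 11.47 RPKM in control, 10.27 and 8.57 RPKM with Glis3 shRNA (-0.29, adjusted p = 0.0691) and 9.10 and 9.48 RPKM with CD133 shRNA (-0.30, adjusted p = 0.0622). All 4 knockdown libraries of Slc30a1 thus lay below control while all 4 of Mt1 and Mt2 lay above it.

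**Figure D4:**
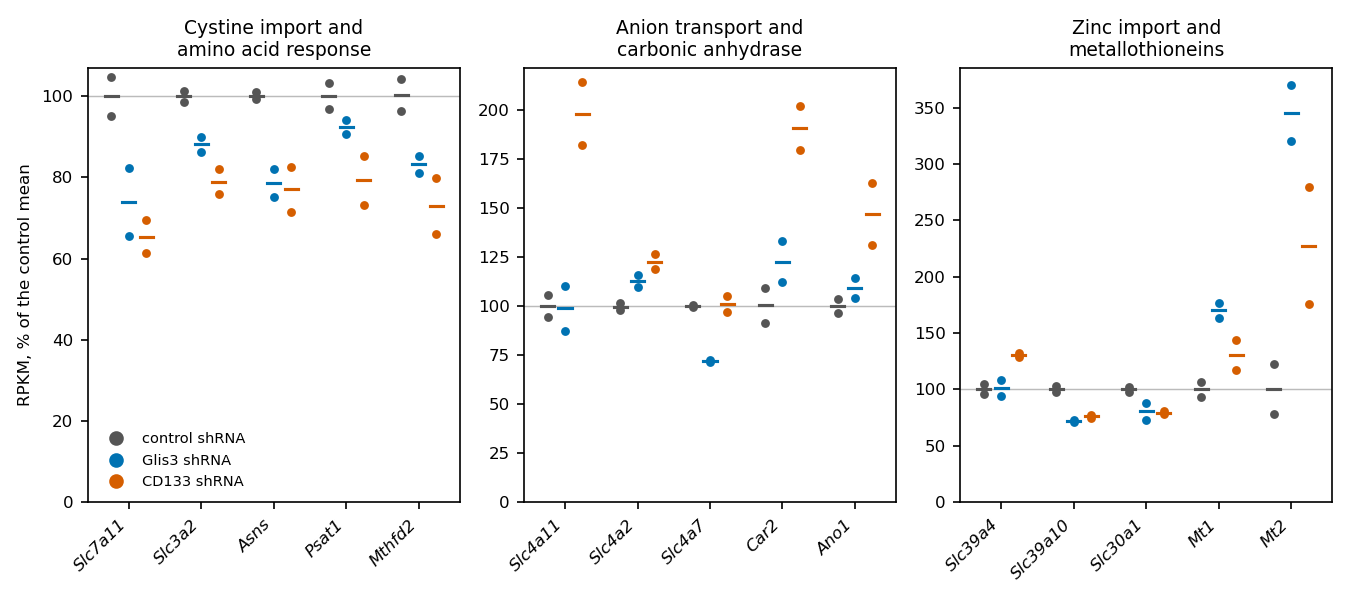
Level of transporters and of genes that work beside them in each library, as RPKM in percent of the control mean (points are libraries, bars are group means of 2 libraries). Slc7a11 and Slc3a2 lay below control in all 4 knockdown libraries, Slc4a11 and Car2 were highest in the CD133 libraries, and Slc39a10 lay below and Mt2 above control in both knockdowns.

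The bicarbonate and anion families were split. Of 8 genes 7 were tested, and 1 rose, 1 fell and 5 did not pass in the Glis3 knockdown (median 0.15), while 2 rose and 5 did not pass in the CD133 knockdown (median 0.28). Slc4a7 (ENSMUSG00000021733.10, chromosome 14: 14702279 to 14799940, plus strand), a sodium-bicarbonate importer, measured 16.28 and 16.10 RPKM in control, 11.56 and 11.73 RPKM in the Glis3 knockdown and 17.03 and 15.69 RPKM in the CD133 knockdown. It fell with Glis3 shRNA (-0.44, SE 0.058, adjusted p = 0.00925, leave-out range -0.45 to -0.43), stood at 0.01 with CD133 shRNA (interval -0.12 to 0.15), and differed between the knockdowns by -0.46 (adjusted p = 0.0173). Slc26a9 (chromosome 1: 131744022 to 131771504, plus strand), a chloride transporter of gastric and airway epithelium, rose from 4.75 and 4.56 RPKM to 7.29 and 9.52 RPKM with Glis3 shRNA (0.72, SE 0.122, adjusted p = 0.0164, leave-out range 0.55 to 0.90). With CD133 shRNA it measured 7.21 and 6.15 RPKM, above both controls, and did not pass (0.44, adjusted p = 0.0625).

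Slc4a11 (ENSMUSG00000074796.10, chromosome 2: 130684113 to 130697519, minus strand) belongs to the bicarbonate family by sequence but is known for conducting protons and water rather than bicarbonate. It measured 11.18 and 10.01 RPKM in control, 11.68 and 9.26 RPKM in the Glis3 knockdown and 22.70 and 19.28 RPKM in the CD133 knockdown. Only the CD133 libraries stood apart, at 198% of the control mean. Its log2 fold change was 0.92 (SE 0.121, adjusted p = 0.0143, leave-out range 0.81 to 1.03) with CD133 shRNA and -0.02 (interval -0.31 to 0.27) with Glis3 shRNA. Slc4a2, a chloride-bicarbonate exchanger, rose from 15.13 and 14.59 RPKM to 18.85 and 17.70 RPKM with CD133 shRNA (0.28, SE 0.059, adjusted p = 0.0316, leave-out range 0.24 to 0.32), a call lost with median centring. Exons of Slc4a2 overlap those of Fastk on the opposite strand.

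Of 12 genes that take part in ductal bicarbonate and fluid secretion, 7 had values, and in the CD133 knockdown 2 rose, 1 fell and 4 did not pass (median 0.14). Over all genes, 8.16% rose and 3.64% fell in that comparison. The carbonic anhydrase gene Car2, whose enzyme makes bicarbonate from carbon dioxide, rose from 137.22 and 163.71 RPKM to 303.07 and 269.18 RPKM (0.93, adjusted p = 0.0138). The calcium-activated chloride channel gene Ano1 rose from 96.09 and 103.03 RPKM to 161.85 and 130.58 RPKM (0.54, adjusted p = 0.0279), and the water channel gene Aqp5 fell by 0.66 (adjusted p = 0.0317). In the Glis3 knockdown limma called 0 of the 7, with 3 at an unadjusted p under 0.05 (median 0.13). Car2 and Aqp5 also differed between the knockdowns, by -0.64 (adjusted p = 0.0417) and 0.79 (adjusted p = 0.038). Duct markers, shown for their place beside this list, also moved with CD133 shRNA: Krt19 by 0.66 (adjusted p = 0.0312), Sox9 by 0.41 (adjusted p = 0.0151) and Spp1 by -0.87 (adjusted p = 0.029), and their part in these results was not tested.

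Among the other classes, 19 genes carry sodium, protons, chloride, calcium or phosphate, and 15 of them were tested. With Glis3 shRNA 2 rose and 1 fell, and with CD133 shRNA 4 rose and 0 fell. The fall with Glis3 shRNA was that of Slc17a5, which exports sialic acid from lysosomes, from 17.35 and 17.01 RPKM to 13.07 and 11.67 RPKM (-0.45, SE 0.065, adjusted p = 0.01175, leave-out range -0.52 to -0.37). It measured 14.43 and 14.82 RPKM with CD133 shRNA (-0.22, adjusted p = 0.0738). The rises with CD133 shRNA included, besides that of Slc20a1, those of the phosphate importer Slc34a2, from 0.77 and 0.80 RPKM to 1.46 and 1.40 RPKM (0.44, adjusted p = 0.02435), and of Slc12a9, a cation-chloride cotransporter family member named after its values were seen (0.25, adjusted p = 0.0475). Slc34a2 passed the filter only through its CD133 libraries (group means 0.785 in control, 0.945 with Glis3 and 1.43 RPKM with CD133 shRNA). Its call is therefore given as a description only. Slc12a2, which brings chloride in across the basolateral membrane, stood at -0.23 (adjusted p = 0.0628) and -0.13 (adjusted p = 0.206), and Slc12a7 at 0.01 and 0.07.

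Nucleoside and vitamin transporters (11 genes) had 1 fall with Glis3 shRNA and 1 rise with CD133 shRNA. Slc28a3, which concentrates nucleosides with sodium, measured 4.81 and 5.10 RPKM in control, 2.61 and 1.77 RPKM in the Glis3 knockdown and 3.64 and 4.37 RPKM in the CD133 knockdown. It fell with Glis3 shRNA (-0.91, SE 0.136, adjusted p = 0.0121, leave-out range -1.10 to -0.72) and stood at -0.25 with CD133 shRNA (adjusted p = 0.257), and the difference of -0.66 between them did not pass (adjusted p = 0.0508). The rise was that of Slc29a1 (0.41, adjusted p = 0.028, leave-out range 0.34 to 0.49). Of 8 organic ion genes, 7 tested, Slc22a17, described as a receptor for lipocalin 2, rose with CD133 shRNA from 7.54 and 5.97 RPKM to 11.25 and 14.01 RPKM (0.81, SE 0.128, adjusted p = 0.0191, leave-out range 0.67 to 0.96). It measured 8.88 and 8.16 RPKM with Glis3 shRNA (0.30, adjusted p = 0.168). Slc22a23 and Slc22a18, the most abundant of this class, stood at -0.10 and 0.24 with Glis3 and at 0.07 and 0.24 with CD133 shRNA and did not pass.

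Most of the 12 nucleotide sugar and sugar phosphate transporter genes covered by the rule were not called. That also held for all genes (12.9% called with Glis3 and 11.8% with CD133 shRNA). With Glis3 shRNA 11 of the 12 had a value above 0 (median 0.12, all genes 0.04). In the Glis3 knockdown limma called 0, with 3 at an unadjusted p under 0.05 and log2 fold changes from -0.08 to 0.19. In the CD133 knockdown they ranged from -0.09 to 0.28, and 1 rose: Slc35b1, which exchanges ATP into the endoplasmic reticulum, from 13.60 and 14.45 RPKM to 17.02 and 17.58 RPKM (0.28, adjusted p = 0.0283; named after its values were seen). Of the 11 lipid, choline and acetyl-CoA transporter genes, Slc10a2 fell in both knockdowns and the fatty acid transporter Slc27a1 rose with CD133 shRNA, from 6.48 and 6.36 RPKM to 8.47 and 9.09 RPKM (0.40, adjusted p = 0.049). The choline transporter-like genes Slc44a1 and Slc44a2 stood at 0.10 and -0.21 with Glis3 and at 0.10 and -0.10 with CD133 shRNA. Of the 6 transporters of other metals, Slc48a1 alone was called, while the copper importer Slc31a1 stood at -0.02 and -0.01. Like every CD133 call, those of Slc35b1, Slc27a1, Slc12a9 and Slc34a2 were lost on leaving out CD133 library 1 or either control. Like most, they were also lost without CD133 library 3. The calls of Slc35b1, Slc27a1 and Slc12a9 were lost with median centring as well. Of the genes that are no transporters, Slc9a3r2, Slc4a1ap and Slc7a6os were not called in any comparison.

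The 8 members not tested had a mean below 1 RPKM: Slc5a1, Slc5a9, Slc26a3, Slc18a1, Slc8a1, Slc9a4, Slc9a7 and Slc9a9. Of these, 6 measured at most 1.37 RPKM in every library. The other 2 were singled out after their values were seen, and their 3 groups did not overlap. That also held for Slc5a1, among the 6. It measured 0.46 and 0.48 RPKM in control, 1.02 and 0.66 RPKM with Glis3 shRNA and 0.57 and 0.61 RPKM with CD133 shRNA. Slc5a9, a sodium-coupled mannose and glucose transporter, measured 0.80 and 1.04 RPKM in control, 0.31 and 0.31 RPKM in the Glis3 knockdown and 1.95 and 1.5 RPKM in the CD133 knockdown. Slc26a3, a chloride-bicarbonate exchanger of the colon, measured 1.03 and 0.50 RPKM in control, 1.63 and 1.20 RPKM in the Glis3 knockdown and 0.18 and 0.19 RPKM in the CD133 knockdown. With no filter on low values, Slc5a9 stood at -0.55 with Glis3 shRNA (adjusted p = 0.0324) and at 0.50 with CD133 shRNA (adjusted p = 0.0424). In that fit the knockdowns differed by -1.05 in Slc5a9 (adjusted p = 0.0135) and by 1.02 in Slc26a3 (adjusted p = 0.0282).

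As a second class of membrane transporters, 24 ABC genes, which spend ATP to move lipids, drugs and peptides and include a few that are no transporters, were listed, of which 23 had values. In the Glis3 knockdown 4 rose, 1 fell and 18 did not pass (median 0.11), and in the CD133 knockdown 3 rose and 20 did not pass (median 0.09). Rises made up 8.39% and 8.16% of all genes in these comparisons. The drug efflux pump gene Abcb1a rose from 0.85 and 0.80 RPKM to 1.96 and 1.97 RPKM with Glis3 shRNA (0.70, adjusted p = 0.0121), and Abcc5, an exporter of nucleotide analogues, rose by 0.49 (adjusted p = 0.00901) with Glis3 and 0.36 (adjusted p = 0.0219) with CD133 shRNA. Abcb1a passed the filter only through its Glis3 libraries (group means 0.825 in control, 1.96 with Glis3 and 0.84 RPKM with CD133 shRNA). Abcg1, a cholesterol exporter, fell from 2.74 and 2.75 RPKM to 1.51 and 1.52 RPKM with Glis3 shRNA (-0.57, adjusted p = 0.0121) and stood at 3.51 and 2.96 RPKM with CD133 shRNA.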

How the data were processed

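Poly(A)-selected RNA of 6 libraries (3 groups of 2) was analysed. The authors deposited RPKM values with 2 decimals for 11164 genes. Each gene reached at least 1.00 RPKM in some library, so genes below that are not analysed here. Per the submitters' processing notes, the tools were bcl2fastq 2.18.0.12, HTSeq and TopHat2, on mm10; strand setting and annotation are not stated there. From the deposited values log2(RPKM + 1) was taken, with no scaling added, and a limma 3.58.1 model (R 4.3.3) of 3 group means was fitted to 10829 genes whose mean reached 1 RPKM. Empirical Bayes moderation used a variance trend (3 residual and 3.69 prior degrees of freedom). Tests were two-sided, with Benjamini-Hochberg adjustment over all genes of a comparison and a threshold of 0.05; the pseudocount understates changes of low genes. The fit was tested on simulated data.

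Spacing of the low values in genes under 1200 bases gave the depth estimate: 56.8% to 62.6% of these values were whole reads within 0.15 read, against 30% by chance. Counts could not be recovered from such steps, so no count test was run. Coordinates are from GENCODE M21 (GRCm38, the assembly behind mm10), which held all 137 members. Members, classes and lists were chosen with earlier results of these data known. The naming rule took the 2 most abundant members of each class, up to 10 rises and 10 falls per comparison whose groups did not overlap, up to 3 calls (or else the smallest p) in each of the 5 main classes, calls in both knockdowns, up to 3 calls of each partner list, and the targets. The 15 alternatives changed the pseudocount, filter, scaling, replicate block, groups fitted, variance trend or libraries. Single results of 2 members that passed are not reported here; counts, sums and medians include them.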

Additional observations from a re-analysis of the deposited data

How the results depend on the processing

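Over the 15 alternatives, 3030 values of named genes were recomputed: 2638 stayed on their side of the threshold, 349 lost the call and 43 gained one. A call could be lost only where the value as reported was called, which was the smaller part of the 3030. The share lost among called values was thus higher than the share over all of them. Of the 3030, 57 changed sign at 2 decimals, with 0 of these among values that were called. Counts of members called moved more. Median centring gave 2 rises and 17 falls with Glis3 shRNA and 7 and 14 with CD133 shRNA, and quantile normalization gave 3 and 7 rises. A minimum mean of 5 RPKM left 5 calls (3 lower) between the knockdowns. Fitting only the 2 groups compared gave 4 rises with Glis3 shRNA, 12 falls with CD133 shRNA and, between the knockdowns, 0 calls (0 higher, 0 lower; 35 members at an unadjusted p under 0.05). With the replicate block the calls were 9 (2 rises) with Glis3 shRNA, 4 (3 rises, 1 fall) with CD133 shRNA and 2 (0 higher, 2 lower) between them. Of all genes, 5.61% were called with Glis3 shRNA in that fit, against 12.9% without the block. Same-numbered libraries did not deviate together: their deviations from the group means correlated at -0.372 (control and Glis3), -0.428 (control and CD133) and 0.032 (Glis3 and CD133). With 2 libraries a group these deviations mirror each other. The negative values thus mean that control libraries deviated together with knockdown libraries of the other number. What such libraries share was not tested.

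On leaving out each library in turn, calls ran from 0 to 13 with Glis3 shRNA (rises 0 to 4, falls 0 to 10), from 0 to 30 with CD133 shRNA (rises 0 to 18, falls 0 to 12) and from 0 to 16 between the knockdowns (higher 0 to 4, lower 0 to 12). Without the 4 members that are no transporters, chosen after seeing the data, calls were 15, 20 and 8. Causes of these shifts were not tested.

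Class medians with Glis3 shRNA under a pseudocount of 5, a minimum of 5 RPKM, median centring and quantile normalization were -0.05, -0.03, -0.15 and -0.13 for sugar. For amino acids they were -0.09 (pseudocount 0.1), -0.10 (minimum 5), -0.12 and -0.11 (the 2 scalings), for monocarboxylates -0.50 (pseudocount 0.1), -0.17 (pseudocount 5) and -0.53 (minimum 5), for zinc -0.07 and -0.06 (the 2 scalings) and for bicarbonate 0.05 (pseudocount 5). With CD133 shRNA they were 0.05 (no filter), -0.05 and -0.06 (the 2 scalings) for sugar, 0.03 (pseudocount 5), 0.02 (minimum 5), 0.00 and -0.01 (the 2 scalings) for amino acids, -0.34 (minimum 5) for monocarboxylates, -0.07 and -0.06 (the 2 scalings) for zinc and 0.44 (minimum 5) for bicarbonate. Without single libraries the medians with Glis3 shRNA ran from -0.09 to -0.06 (sugar), -0.12 to -0.05 (amino acid), -0.39 to -0.24 (monocarboxylate), -0.06 to 0.01 (zinc) and 0.04 to 0.19 (bicarbonate). With CD133 shRNA they ran from -0.04 to 0.04, 0.03 to 0.07, -0.16 to -0.08, -0.02 to 0.05 and 0.25 to 0.32, and between the knockdowns from -0.11 to -0.01, -0.03 to 0.03, -0.26 to -0.08, -0.10 to -0.05 and -0.16 to -0.08. With 2 libraries a group and no counts, precision rests on the spread between libraries.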
